A study of Homo sapiens with 27 samples.

Results

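The TNF superfamily genes described here were 8 genes chosen from a list of symbols, with earlier results of these libraries known: the ligand genes TNFSF9, TNFSF10 and TNFSF15 and the receptor genes TNFRSF1A, TNFRSF9, TNFRSF11B, TNFRSF12A and TNFRSF21. They were found by gene ID among 41686 human genes in the shRNA libraries and 34742 in the siRNA libraries. Because the levels in these same libraries were known when the genes were listed, their levels and changes are given as a description, without a test. All libraries came from SHP77, a human small cell lung cancer line. The first set was total RNA of cells carrying circRMST shRNA 1 or circRMST shRNA 2 (2 libraries each), against cells carrying shGFP (2 libraries). These cells were infected with lentivirus and selected with puromycin, controls included. circRMST is a circular RNA made from the RMST locus. The second set was poly(A)-selected RNA of cells transfected with SOX2 siRNA 1, SOX2 siRNA 2, NKX2-1 siRNA 1 or NKX2-1 siRNA 2 (2 libraries each), against si-control (3 libraries). The question of each comparison is which genes depend on the circular RNA or on the transcription factor named. All libraries come from 1 cell line, and the labels do not say whether replicates were separate cultures, so errors measure the spread between these libraries and may be technical.

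TNF superfamily ligands are mostly trimeric proteins on the cell surface or shed from it, and they bind a matching family of receptors with cysteine-rich outer domains. Receptors with a death domain can recruit adaptors that lead to caspase activation. Many receptors, with or without a death domain, also recruit TRAF proteins and feed into NF-kB and MAP kinase signalling. Soluble receptors without a membrane anchor act as decoys. Several of the genes are known as NF-kB targets in other cells, and the family is best known from immune and epithelial tissue.

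Read depth was 46.9 to 57.4 megareads recovered per library in the shRNA set and 15.5 to 50.1 megareads in the siRNA set. SOX2 averaged 423 normalized counts with its own siRNAs, against 1142 in si-control (log2 change -1.43). NKX2-1 averaged 915 with its own siRNAs, against 2234 (log2 change -1.29). SOX2 was also higher with NKX2-1 siRNA, with 2098 to 2285 normalized counts, against 1084 to 1191 in si-control. NKX2-1 had 2446 to 2764 with SOX2 siRNA, against 2145 to 2357. The part of the SOX2 rise in the NKX2-1 siRNA values below was not tested. RMST averaged 268 normalized counts with circRMST shRNA, against 290 in shGFP, which passed no test, and a count over the whole gene does not measure the circle. All 8 neuroendocrine markers checked were above 0 in every library. Their summed level was 33034 to 39597 normalized counts in the circRMST shRNA libraries, against 69093 and 75040 in shGFP. It was 69982 to 74683 with SOX2 siRNA and 71477 to 81011 with NKX2-1 siRNA, against 73426 to 74472 in si-control. The summed level of 12 listed blood, endothelial and fibroblast markers was 555 to 978 with circRMST shRNA, against 593 and 684 in shGFP, and 314 to 464 with SOX2 siRNA and 251 to 623 with NKX2-1 siRNA, against 479 to 503 in si-control, where PTPRC and LYZ had no read. Of the protein-coding genes, 1548 had no read in any siRNA library, and of these 14.7 to 20.5% had a read in the circRMST shRNA libraries, against 82.4% and 85.6% in the shGFP libraries. The median shGFP excess of those genes was 4.03 normalized counts and its 99th percentile 38.7. The part that these shifts had in the values below was not tested.

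The promoters of TNFSF15 and TNFRSF9 are shown because these genes had the largest differences of the 8 with both transcription factor siRNAs, opposite in direction to those with circRMST shRNA. RefSeq promoter sequence (GRCh38.p14) was at hand for 6 of the 8 genes, as the 250 bases before the annotated start. The following sequences run 5′ to 3′ on the gene's strand, and capitals mark matches to the motifs named after them.
TNFSF15 (chr9:114792531-114792780, minus strand): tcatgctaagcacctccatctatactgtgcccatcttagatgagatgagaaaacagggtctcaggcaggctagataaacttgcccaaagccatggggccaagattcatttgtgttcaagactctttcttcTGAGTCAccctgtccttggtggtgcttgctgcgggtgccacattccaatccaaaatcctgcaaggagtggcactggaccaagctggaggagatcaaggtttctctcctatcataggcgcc
TNFRSF9 (chr1:7940840-7941089, minus strand): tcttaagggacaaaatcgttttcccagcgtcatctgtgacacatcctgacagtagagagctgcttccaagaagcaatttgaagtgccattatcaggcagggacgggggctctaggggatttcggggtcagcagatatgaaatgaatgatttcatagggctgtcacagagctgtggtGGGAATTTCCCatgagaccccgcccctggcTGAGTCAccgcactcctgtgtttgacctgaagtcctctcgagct
Both strands were searched for an AP-1 motif (TGANTCA), a loose NF-kB motif (GGG, any 5 bases, CC), a SOX motif (AACAAT) and an NKX2 motif (CAAGTG). The AP-1 letters lay 120 to 114 bases before the TNFSF15 start and 44 to 38 bases before the TNFRSF9 start, and 6.60% of 27305 promoters of this length held them. The loose NF-kB letters lay 74 to 65 bases before the TNFRSF9 start, with an overlapping match at 73 to 64, but 53.7% of promoters held this motif. A narrower form (GGGA, any 1 base, TTTCC) was searched only after the TNFRSF9 letters had been seen; it matched at 74 to 65, and 0.546% of promoters held it, a share that cannot be read as evidence because the form was fitted to the sequence. The loose NF-kB motif was also found in the promoters of TNFSF9, TNFSF10 and TNFRSF21, and the narrow form in none of the other 5. None of the 6 promoters held the SOX or NKX2 letters, and TNFRSF1A held no match at all. Only 9.19% of all promoters held the SOX letters and 9.59% the NKX2 letters, so nothing is read from their absence here. The TNFSF15 start used by RefSeq here is not the most upstream end of the gene record. These are matches of letters in 1 window and show no binding.

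TNFSF15 (ENSG00000181634.7, chromosome 9, 114784635 to 114806039), which encodes the ligand TL1A, had larger changes than TNFSF9, the other ligand gene of the 8 that was fitted, in all 3 knockdowns. It had 85.4 and 83.8 normalized counts with SOX2 siRNA 1 and 120 and 113 with SOX2 siRNA 2, against 1353, 1260 and 1336 in si-control. With NKX2-1 siRNA 1 it had 170 and 167, and with NKX2-1 siRNA 2 it had 225 and 180. All 8 knockdown libraries lay far below the 3 controls, and all 4 SOX2 libraries lay below all 4 NKX2-1 libraries. Its mean was 13.1-fold lower with SOX2 siRNA than in si-control (log2 change -3.72, SE 0.09) and 7.11-fold lower with NKX2-1 siRNA (log2 change -2.83, SE 0.09), on the scale of log2(normalized count + 1), as are all log2 changes here. In such bulk RNA, fewer cells with the transcript and less transcript per cell cannot be told apart. The SOX2 and NKX2-1 comparisons share the si-control libraries. Set directly against each other, SOX2 siRNA gave the lower level (log2 difference -0.89, SE 0.08). In the shRNA set the direction was the other one: 875 and 879 normalized counts with circRMST shRNA 1 and 709 and 711 with circRMST shRNA 2, against 493 and 461 in shGFP. All 4 knockdown libraries lay above both controls (log2 change 0.73, SE 0.09, 1.65-fold), with shRNA 1 above shRNA 2 by a log2 difference of 0.30 (SE 0.10) that lost its call with no filter and without any 1 of the 4 circRMST shRNA libraries (0.30 to 0.31).

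TNFSF9 (ENSG00000125657.4, chromosome 19, 6531026 to 6535924) encodes 4-1BBL, the ligand of the receptor encoded by TNFRSF9. It had 259 and 245 normalized counts with SOX2 siRNA 1 and 225 and 230 with SOX2 siRNA 2, against 304, 290 and 319 in si-control. With NKX2-1 siRNA 1 it had 209 and 255, and with NKX2-1 siRNA 2 it had 211 and 280. Every knockdown library lay below every control, by amounts far smaller than for its receptor (log2 change -0.34, SE 0.10, with SOX2 siRNA and -0.36, SE 0.10, with NKX2-1 siRNA). Of the shRNA libraries, it had 60.7 and 58.7 normalized counts with circRMST shRNA 1 and 32.2 and 71.3 with circRMST shRNA 2, against 45.2 and 75.0 in shGFP. The groups overlapped, and the log2 change was -0.12 with an SE of 0.32 (95% interval -0.77 to 0.53).

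TNFSF10 (ENSG00000121858.10, chromosome 3, 172505508 to 172523430) encodes TRAIL, a ligand of death receptors, and was near the detection limit throughout. In the siRNA set it had 1 read over the 4 SOX2 siRNA libraries and 2 over the 4 NKX2-1 siRNA libraries, against 4 over the 3 si-control libraries. Among shRNA libraries it had 0 and 0 reads with circRMST shRNA 1 and 4 and 0 with circRMST shRNA 2, against 10 and 12 in shGFP. The shGFP mean of 10.8 normalized counts lies within the excess seen there for the silent genes above. Its mean was under the minimum of 10 normalized counts in both sets, so 7 of the 8 genes entered the fits.

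**Figure D1:**
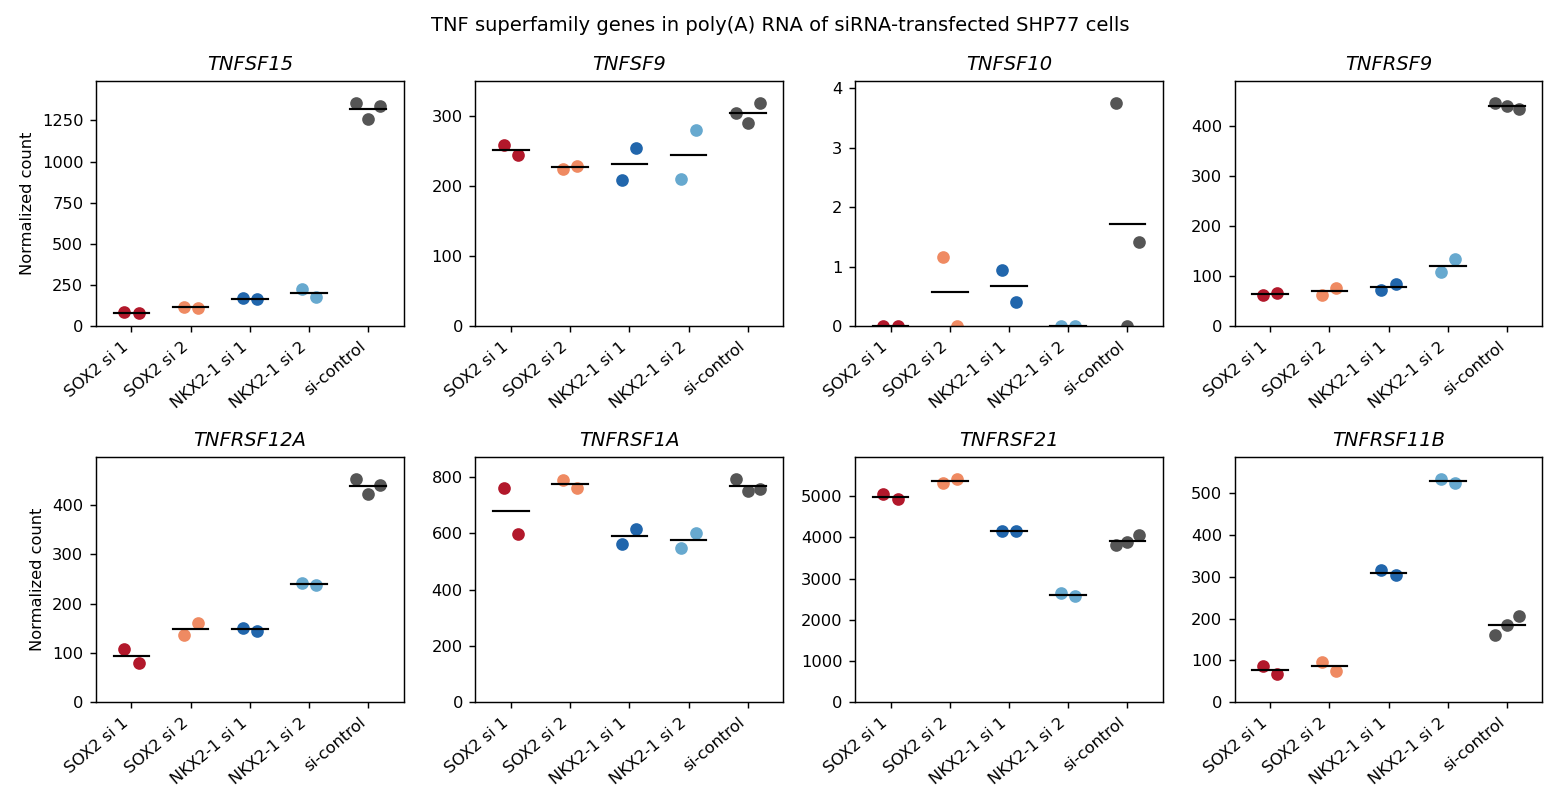
Normalized counts of the 8 genes in each siRNA library (points) with the mean of each group (line), SOX2 siRNA and NKX2-1 siRNA left of si-control, on linear axes from 0 that differ between panels. TNFSF15, TNFRSF9 and TNFRSF12A were low in all 8 knockdown libraries, and TNFRSF11B was below si-control with SOX2 siRNA and above it with NKX2-1 siRNA.

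TNFRSF9 (ENSG00000049249.8, chromosome 1, 7915871 to 7940839) encodes the costimulatory receptor 4-1BB, which signals through TRAF proteins and has no death domain. In the siRNA set it had 63.3 and 66.5 normalized counts with SOX2 siRNA 1 and 63.1 and 76.5 with SOX2 siRNA 2, against 444, 440 and 433 in si-control. With NKX2-1 siRNA 1 it had 72.7 and 85.5, and with NKX2-1 siRNA 2 it had 108 and 135. No knockdown library came near the controls, and the mean was 6.46-fold lower with SOX2 siRNA (log2 change -2.69, SE 0.12) and 4.46-fold lower with NKX2-1 siRNA (log2 change -2.16, SE 0.12). In the shRNA set it had 428 and 361 normalized counts with circRMST shRNA 1 and 439 and 433 with circRMST shRNA 2, against 63.7 and 74.0 in shGFP. All 4 knockdown libraries were well above both controls, 5.96-fold on average (log2 change 2.57, SE 0.14), the highest change of the 8 genes in that set. The difference between the shRNAs was within its error (log2 difference -0.15, SE 0.16), while NKX2-1 siRNA 1 gave a lower level than NKX2-1 siRNA 2 (log2 difference -0.61, SE 0.16), a call that was lost without NKX2-1 siRNA 1 replicate 1 (-0.49) or NKX2-1 siRNA 2 replicate 2 (-0.45).

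TNFRSF12A (ENSG00000006327.13, chromosome 16, 3020368 to 3022383) encodes Fn14, the receptor for TWEAK and a gene induced by growth factors and injury. It had 108 and 78.8 normalized counts with SOX2 siRNA 1 and 137 and 161 with SOX2 siRNA 2, against 453, 423 and 441 in si-control. With NKX2-1 siRNA 1 it had 150 and 145, and with NKX2-1 siRNA 2 it had 241 and 238. All 8 knockdown libraries lay below the controls (log2 change -1.90, SE 0.11, with SOX2 siRNA and -1.22, SE 0.11, with NKX2-1 siRNA), and the first siRNA to each factor gave the lower level (log2 difference of siRNA 1 minus siRNA 2 of -0.68, SE 0.14, for SOX2 and -0.70, SE 0.14, for NKX2-1). In the shRNA set it had 69.1 and 76.3 normalized counts with circRMST shRNA 1 and 102 and 63.0 with circRMST shRNA 2, against 43.2 and 53.2 in shGFP. The groups did not overlap, but the log2 change of 0.66 had an SE of 0.26, neither shRNA alone passed the threshold, and the average lost its call with DESeq2, with equal totals, with no filter and when any library but circRMST shRNA 2 replicate 2 was left out (0.49 to 0.81). Its ligand gene TNFSF12, which is not among the 8, averaged 12.0 normalized counts with SOX2 siRNA and 35.2 with NKX2-1 siRNA, against 23.3 in si-control.

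TNFRSF1A (ENSG00000067182.7, chromosome 12, 6328771 to 6342076) encodes the death-domain receptor for TNF that most cells carry. In the shRNA set it had 648 and 585 normalized counts with circRMST shRNA 1 and 537 and 525 with circRMST shRNA 2, against 265 and 250 in shGFP. All 4 knockdown libraries lay above both controls (log2 change 1.15, SE 0.10, 2.22-fold). Among the siRNA libraries it had 563 and 615 with NKX2-1 siRNA 1 and 549 and 600 with NKX2-1 siRNA 2, against 792, 751 and 758 in si-control, a small difference without overlap (log2 change -0.40, SE 0.07). With SOX2 siRNA 1 it had 760 and 596 and with SOX2 siRNA 2 it had 789 and 762, which overlapped si-control (log2 change -0.09, SE 0.07, 95% interval -0.23 to 0.05, and -0.17, past the threshold, without SOX2 siRNA 1 replicate 1).

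TNFRSF21 (ENSG00000146072.6, chromosome 6, 47231532 to 47309905) encodes the death-domain receptor DR6, and its values split by reagent. It had 3865 and 3779 normalized counts with circRMST shRNA 1 and 2496 and 2654 with circRMST shRNA 2, against 3787 and 3793 in shGFP. Both shRNA 2 libraries lay well below the controls (log2 change -0.56, SE 0.06), while 1 shRNA 1 library lay slightly above and the other slightly below them, and the log2 difference of shRNA 1 minus shRNA 2 was 0.57 (SE 0.06). The NKX2-1 siRNAs split in the same manner, with 4159 and 4165 for siRNA 1 and 2647 and 2579 for siRNA 2, against 3814, 3889 and 4056 in si-control (log2 difference of siRNA 1 minus siRNA 2 of 0.67, SE 0.04). The averages of -0.27 for circRMST shRNA and -0.25 for NKX2-1 siRNA therefore describe neither reagent. With SOX2 siRNA the gene had 5048 and 4926 for siRNA 1 and 5318 and 5420 for siRNA 2, all above si-control (log2 change 0.40, SE 0.03).

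TNFRSF11B (ENSG00000164761.8, chromosome 8, 118923557 to 118951885) encodes osteoprotegerin, a soluble decoy receptor that binds RANKL and TRAIL. It was the only one of the 7 fitted genes that lay on opposite sides of si-control in both siRNA groups without overlap. It had 86.8 and 67.7 normalized counts with SOX2 siRNA 1 and 96.9 and 75.2 with SOX2 siRNA 2, against 161, 185 and 206 in si-control (log2 change -1.17, SE 0.11, 2.25-fold lower). With NKX2-1 siRNA 1 it had 317 and 303 and with NKX2-1 siRNA 2 it had 534 and 526, against the same controls (log2 change 1.14, SE 0.11, 2.21-fold higher). SOX2 siRNA set directly against NKX2-1 siRNA gave a log2 difference of -2.31 (SE 0.11), 4.96-fold lower. With total RNA it had 120 and 110 normalized counts with circRMST shRNA 1 and 75.3 and 71.3 with circRMST shRNA 2, against 178 and 198 in shGFP, again without overlap (log2 change -1.02, SE 0.19). The difference of shRNA 1 minus shRNA 2 (log2 difference 0.64, SE 0.22) lost its call in DESeq2, with no filter, with only the groups compared and without any 1 of the 6 libraries (0.57 to 0.71).

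**Figure D2:**
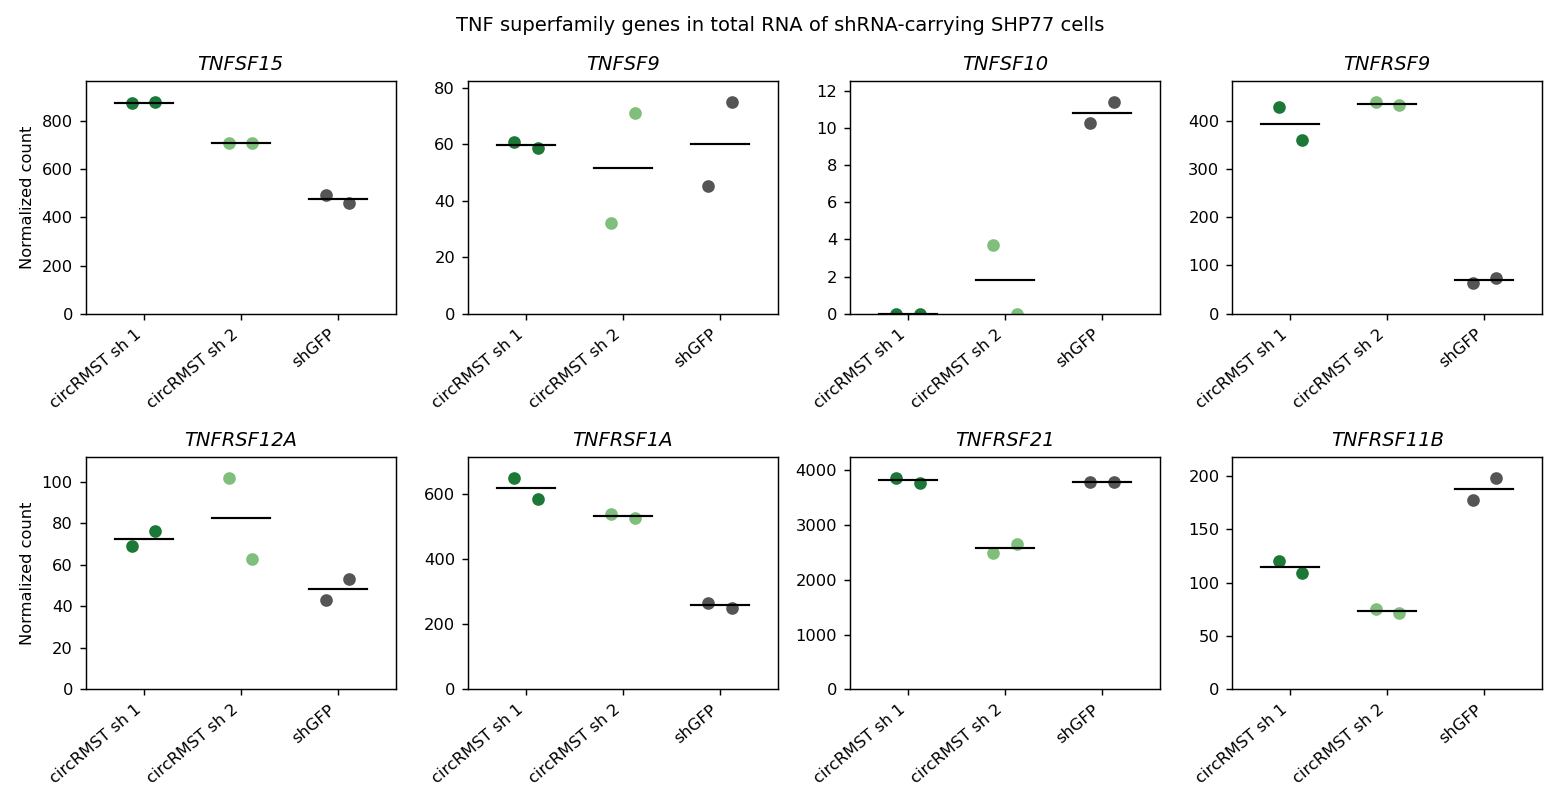
Normalized counts of the 8 genes in each shRNA library (points) with the mean of each group (line), circRMST shRNA 1 and 2 left of shGFP, on linear axes from 0 that differ between panels. TNFRSF9, TNFRSF1A and TNFSF15 were high in all 4 knockdown libraries, and TNFRSF21 was lowest with shRNA 2.

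Of the 7 genes fitted, 4 were higher and 2 lower with circRMST shRNA at an adjusted p under 0.05 in limma, where 27.8% and 25.9% of all 19068 genes were higher and lower. With SOX2 siRNA 1 was higher and 5 lower, where 27.6% and 28.7% of all 16750 genes were. With NKX2-1 siRNA 1 was higher and 6 lower, where 18.5% and 21.4% were. Between SOX2 siRNA and NKX2-1 siRNA 2 were higher and 4 lower, where 27.9% and 28.0% were. Without overlap between the libraries of the groups, 4 were higher and 1 lower with circRMST shRNA (28.6% and 28.2% of all genes), 1 higher and 5 lower with SOX2 siRNA (24.5% and 25.0%), 1 higher and 5 lower with NKX2-1 siRNA (15.9% and 18.0%), and 1 higher and 2 lower in SOX2 siRNA against NKX2-1 siRNA (18.0% and 17.3%). Between the 2 reagents of a pair, 3 of the 7 differed for circRMST (19.1% of all genes), 2 for SOX2 (18.5%) and 4 for NKX2-1 (26.5%). The SOX2 difference of TNFSF15 (-0.46, SE 0.12) lost its call with only the groups compared and without SOX2 siRNA 2 replicate 1 (-0.41), and that of TNFSF15 for NKX2-1 (-0.26, SE 0.12) gained one without NKX2-1 siRNA 2 replicate 2 (-0.42). The genes were chosen with these comparisons known, so nothing is read from these counts. TNFSF15, TNFRSF9 and TNFRSF12A were higher with circRMST shRNA and lower with both transcription factor siRNAs. For TNFRSF12A the circRMST call held only for the average of both shRNAs and was lost in several settings, as given above. The shRNA and siRNA sets differ in RNA selection, delivery, puromycin selection and controls, so the difference between them was not tested.

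**Figure D3:**
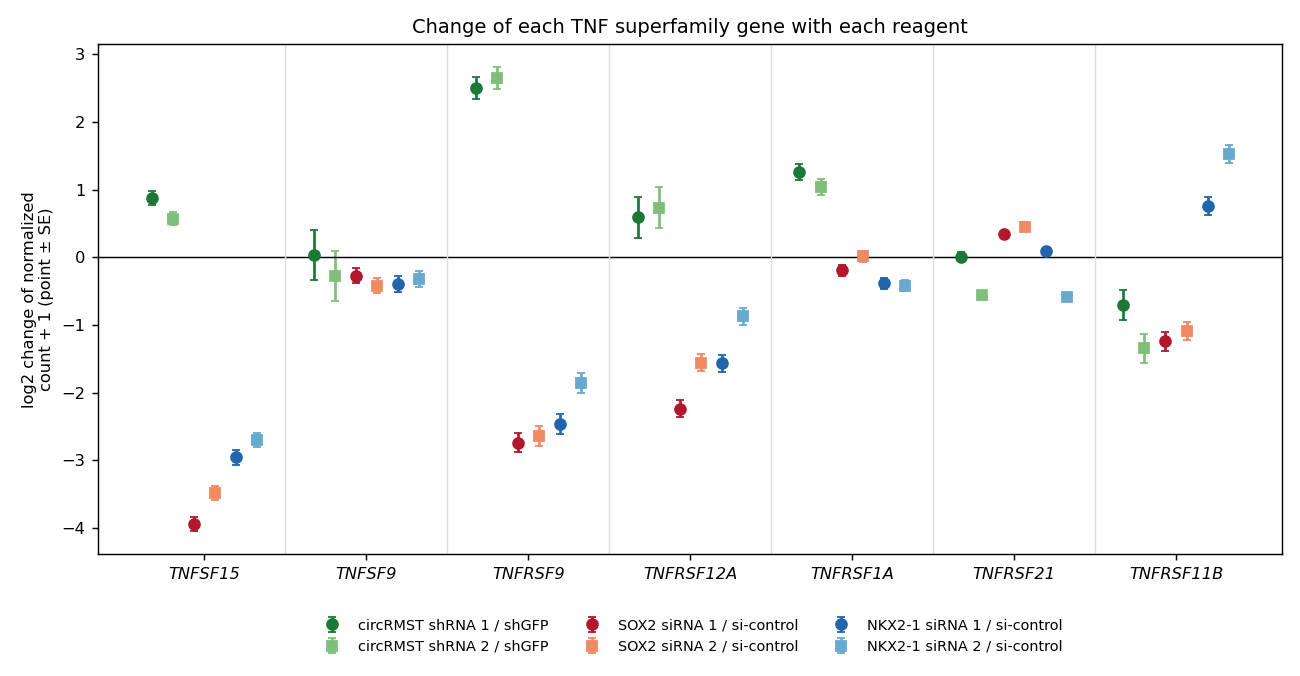
Log2 change of the 7 fitted genes with each reagent against its own control (points, with SE as bars), circRMST shRNAs in green, SOX2 siRNAs in red and NKX2-1 siRNAs in blue. TNFSF15 and TNFRSF9 lay above 0 with both shRNAs and below 0 with all 4 siRNAs, and TNFRSF21 lay on different levels for the 2 reagents of a pair with circRMST shRNA and NKX2-1 siRNA.

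Over the 11 siRNA libraries, the pattern of each gene was set beside that of 12868 well-measured genes (mean normalized count 50 or more), as a description of libraries that share their groups. TNFSF15 was most like TREM1 (Pearson r = 0.994) and ERRFI1 (r = 0.989), and TNFRSF9 most like ARC (r = 0.988) and EFNA1 (r = 0.983). TNFRSF12A was most like STEAP1B (r = 0.987) and AHNAK2 (r = 0.986), TNFRSF11B most like TENT5A (r = 0.995) and HEPACAM2 (r = 0.985), and TNFRSF21 most like MRPS27 (r = 0.993) and PBX3 (r = 0.982). The best likeness was lower for TNFRSF1A, with CACNA1H (r = 0.957) and PLK3 (r = 0.931), and for TNFSF9, with PFKL (r = 0.878) and LINC00399 (r = 0.874).

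The other 39 ligand and receptor genes of the family, listed by nomenclature, were mostly low, and 19 were fitted in the shRNA set and 21 in the siRNA set. With SOX2 siRNA 12 of 21 fell and 0 rose in limma (14 at an unadjusted p under 0.05 in either direction; 1 rose in edgeR and 2 with quantile normalization), with a median log2 change of -0.68 beside 0.01 for all genes, of which 28.7% fell and 27.6% rose. With NKX2-1 siRNA 10 of 21 fell and 0 rose in limma (12 at an unadjusted p under 0.05 in either direction), with a median of -0.31 beside -0.0043 for all genes, of which 21.4% fell and 18.5% rose. With circRMST shRNA 8 of 19 fell and 1 rose (5 fell without shGFP replicate 2, and 0 rose without shGFP replicate 1), with a median of -0.67 beside 0.00 for all genes, of which 25.9% fell and 27.8% rose. LTB, TNFRSF13B and NGFR had 0 to 7.23 normalized counts with circRMST shRNA. They reached the minimum mean of 10 only through shGFP, so they could not be called higher. Because of this and the shGFP excess of silent genes given above, nothing is read from the circRMST count and median. In the siRNA set TNFSF8 and TNFRSF4 reached that minimum only through si-control and could not be called higher either. Nothing is therefore read from the SOX2 and NKX2-1 counts and medians against si-control. Between SOX2 siRNA and NKX2-1 siRNA 5 were higher and 8 lower (2 higher without NKX2-1 siRNA 1 replicate 1), which became 3 and 9 with equal totals and 7 and 7 with quantile normalization, where 27.9% and 28.0% of all genes were higher and lower as deposited.

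Among the other ligands, TNFSF8, the ligand of CD30, had 11.4 and 12.3 normalized counts with SOX2 siRNA 1 and 11.7 and 6.71 with SOX2 siRNA 2, against 72.4, 48.7 and 71.9 in si-control. With NKX2-1 siRNA it had 3.38 to 8.49. Every knockdown library lay below every control (log2 change -2.51, SE 0.34, with SOX2 siRNA and -3.38, SE 0.34, with NKX2-1 siRNA). TNFSF8 reached the minimum mean only through si-control, so it could only be called lower. Nothing is therefore read from its adjusted p in limma (4.66e-07 with SOX2 siRNA and 6.3e-09 with NKX2-1 siRNA). With SOX2 siRNA, CD70, the ligand of CD27, fell (log2 change -1.64, SE 0.33, adjusted p = 0.000119 in limma). So did TNFSF13, which encodes APRIL (log2 change -0.68, SE 0.09, adjusted p = 1.06e-07), and EDA, the ectodysplasin gene (log2 change -0.68, SE 0.19, adjusted p = 0.00281). With NKX2-1 siRNA TNFSF13 had 220 to 289 normalized counts, against 305 to 319 in si-control. EDA had 47.0 to 59.2 there, against 64.9 to 81.7, while CD70 overlapped si-control. Only calls that passed on average and with each reagent alone are named here and for the other receptors. LTB, a lymphotoxin gene, had 0 reads in all 4 circRMST shRNA libraries, against 30.8 and 39.9 normalized counts in shGFP, a mean within the 99th percentile of the shGFP excess given above.

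Among the other receptors, TNFRSF13B, which encodes TACI, had 9.96 and 4.93 normalized counts with SOX2 siRNA 1 and 1.17 and 4.03 with SOX2 siRNA 2, against 52.4, 64.6 and 53.6 in si-control, and fell (log2 change -3.48, SE 0.32, adjusted p = 4e-10 in limma). With circRMST shRNA it had 0 to 4.19, against 58.6 and 29.4 in shGFP, an excess little above that percentile, as for NGFR, the p75 neurotrophin receptor gene, with 0 to 7.23 against 39.0 and 56.0. TNFRSF11A, which encodes RANK, the receptor of the ligand that osteoprotegerin binds, fell with circRMST shRNA (111 against 269 normalized counts, log2 change -1.26, SE 0.18, adjusted p = 2.38e-06) and with SOX2 siRNA (177 against 290, log2 change -0.71, SE 0.09, adjusted p = 4.28e-07). TNFRSF14, which encodes HVEM, fell with SOX2 siRNA (log2 change -1.49, SE 0.22, adjusted p = 2.58e-06). With NKX2-1 siRNA TNFRSF14 had 29.3 to 51.8 normalized counts, against 57.4 to 86.0 in si-control. TNFRSF4, which encodes OX40, was lower with SOX2 siRNA from low counts (log2 change -1.83, SE 0.53). TNFRSF4 reached the minimum mean of 10 only through si-control, so nothing is read from its adjusted p of 0.00459 (0.125 with no filter). TNFRSF10B, a death receptor for TRAIL, fell with SOX2 siRNA (log2 change -1.45, SE 0.35, adjusted p = 0.000765) and NKX2-1 siRNA (log2 change -1.35, SE 0.35, adjusted p = 0.00264, and 0.0584 with no filter). TNFRSF19 fell slightly with both (log2 changes -0.28 and -0.21). RELT rose with circRMST shRNA (log2 change 0.47, SE 0.13, adjusted p = 0.00358, and adjusted p = 0.135 without shGFP replicate 1) and fell with NKX2-1 siRNA (log2 change -0.28, SE 0.07), while EDA2R fell in both (log2 changes -0.66 and -0.34, the second with an adjusted p of 0.0639 without si-control replicate 1).

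**Figure D4:**
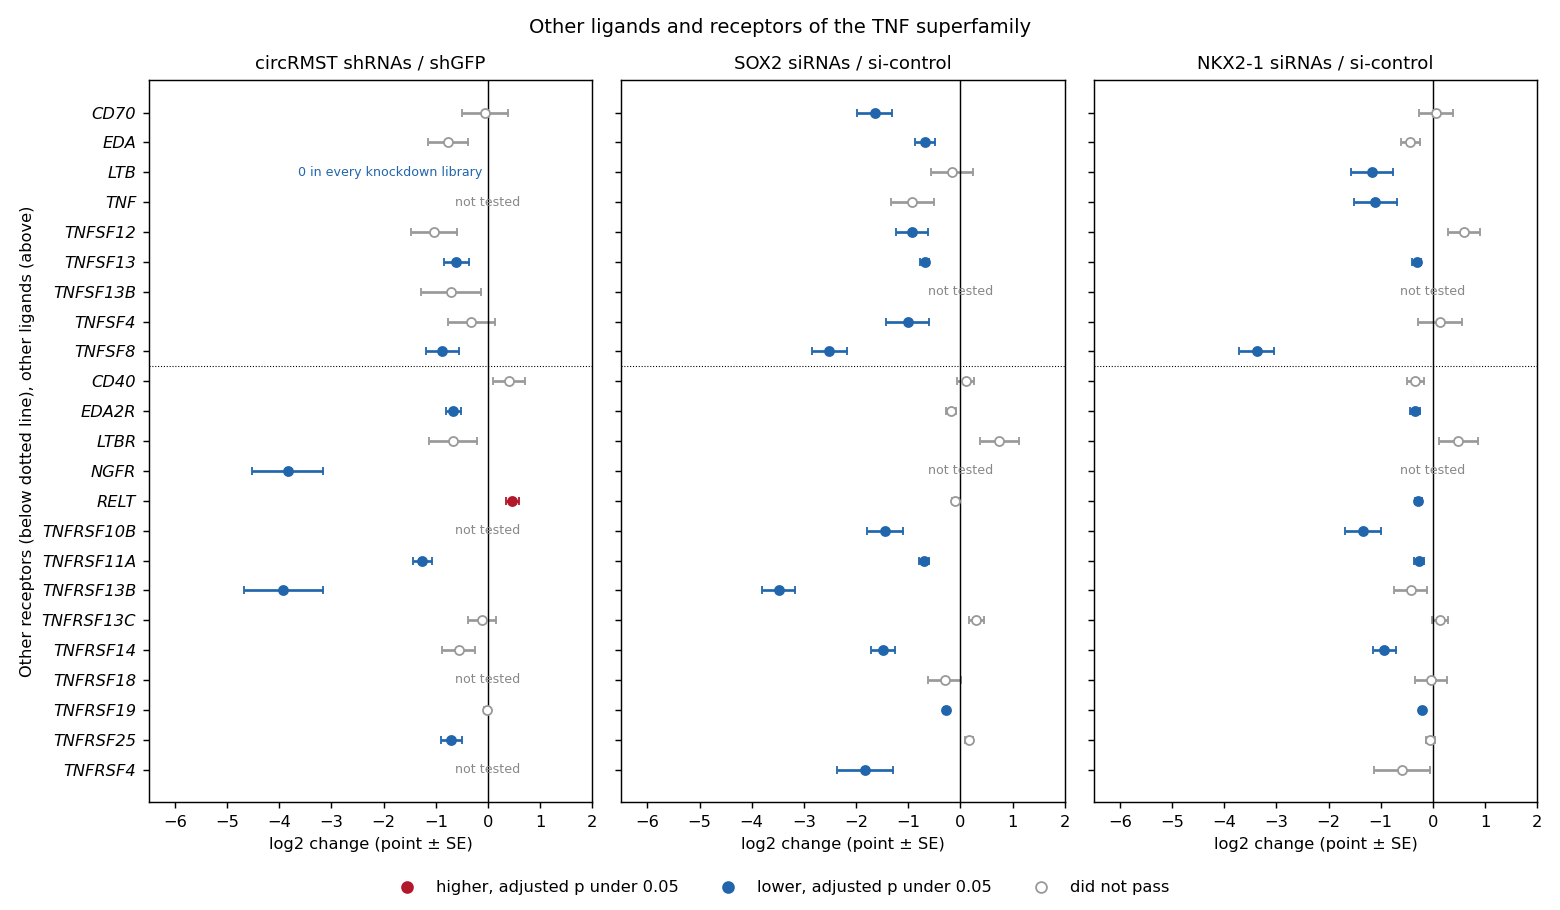
Log2 change (points, with SE as bars) of the other ligand genes (above the dotted line) and receptor genes (below it) with circRMST shRNA, SOX2 siRNA and NKX2-1 siRNA against their controls, filled where the adjusted p was under 0.05. Filled points lie left of 0 except RELT with circRMST shRNA, and LTB is shown as text there because all knockdown libraries were at 0.

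Among 30 fitted adaptor and effector genes that carry the signal of these receptors, 17 rose and 3 fell with circRMST shRNA, which became 11 and 7 with equal totals and 14 and 6 with quantile normalization. Of all genes 27.8% rose and 25.9% fell there, and with equal totals 3636 rose and 6513 fell. Equal totals shifted the median of all genes by -0.14 in that comparison. RBCK1, a subunit of the linear ubiquitin ligase, rose (log2 change 1.01, SE 0.06, adjusted p = 5.8e-12 in limma), as did IKBKG, the NEMO subunit of the IkB kinase (log2 change 1.12, SE 0.19), the deubiquitinase gene CYLD (log2 change 0.96, SE 0.07) and the kinase gene MAP3K5 (log2 change 0.69, SE 0.07). With SOX2 siRNA 7 rose and 11 fell, or 10 and 10 with quantile normalization, where 27.6% of all genes rose and 28.7% fell. Among them were TRAF1, an adaptor of 4-1BB (134 against 276 normalized counts, log2 change -1.04, SE 0.09, adjusted p = 2.55e-10), the shedding protease gene ADAM17 (log2 change -0.66, SE 0.06), the necroptosis effector MLKL (log2 change -0.60, SE 0.09) and, with a rise, the kinase gene MAP3K7 (log2 change 0.48, SE 0.04). ADAM17 had 744 and 721 normalized counts with SOX2 siRNA 1 and 1264 and 1072 with SOX2 siRNA 2. In si-control it had 1398 to 1538, and its SOX2 average describes neither reagent. TRAF1 rose with circRMST shRNA (329 against 209 normalized counts, log2 change 0.65, SE 0.12, adjusted p = 0.000124). With NKX2-1 siRNA 2 rose and 8 fell, or 5 and 5 with equal totals, where 18.5% of all genes rose and 21.4% fell, with MAP3K14, the NF-kB inducing kinase gene, lower (log2 change -0.49, SE 0.12, adjusted p = 0.00247, and 0.0745 with no filter) and MAP3K7 higher (log2 change 0.20, SE 0.04).

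Of the NF-kB subunit, inhibitor and target genes, 7 of 17 rose and 7 fell with circRMST shRNA, or 5 and 8 with equal totals, where 27.8% of all genes rose and 25.9% fell. With SOX2 siRNA 2 of 16 rose and 10 fell, or 0 and 10 with quantile normalization, where 27.6% of all genes rose and 28.7% fell. With NKX2-1 siRNA 0 of 16 rose and 12 fell in limma (12 at an unadjusted p under 0.05 in either direction), where 18.5% of all genes rose and 21.4% fell. On average and with each NKX2-1 siRNA alone 9 fell, where 1713 of all 16750 genes did. The fall differed by reagent: 8 of the 16 were lower and 1 higher with NKX2-1 siRNA 1 than with siRNA 2. Of all genes 2481 were lower and 1966 higher there. The chemokine gene CXCL8 fell in all 3 knockdowns (log2 changes -1.73 with circRMST shRNA, -1.94 with SOX2 siRNA and -2.41 with NKX2-1 siRNA). It had 191 and 222 normalized counts with NKX2-1 siRNA 1 and 893 and 1019 with NKX2-1 siRNA 2, so its NKX2-1 average describes neither reagent. The subunit gene NFKB2 (-2.02, -0.55 and -0.65) and the inhibitor gene NFKBIA (-0.51, -0.96 and -0.34) also fell in all 3. TNFAIP3, the A20 gene, fell with circRMST shRNA (log2 change -1.75, SE 0.25) and SOX2 siRNA (log2 change -0.96, SE 0.10). TNFAIP2 rose with circRMST shRNA (log2 change 0.98, SE 0.08). The protease gene PLAU fell with SOX2 siRNA (log2 change -1.46, SE 0.10) and NKX2-1 siRNA (log2 change -1.25, SE 0.10), as did IER3 (896 with SOX2 siRNA and 1057 with NKX2-1 siRNA, against 1735 normalized counts in si-control), and the chemokine gene CXCL2 fell with NKX2-1 siRNA (log2 change -0.85).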

How the data were processed

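RNA-seq of 17 SHP77 libraries was used; the ChIP-seq samples were not analysed here. Reads were trimmed with cutadapt 2.5, aligned to hg38 with STAR 2.5.2b and processed with DESeq2, per the submitters' processing notes; the order and settings are not given in the sources used here. The values the authors deposited are gene counts divided by size factors, a normalized signal that is neither scaled by length nor comparable between the sets. The total RNA libraries were made with a stranded kit and the poly(A) libraries with another kit, per the labels' protocols. Whether counting used strand is not given. Whole reads were recovered from the steps of the values (100% of values within 0.05 of a whole read). The main test was limma 3.58.1 (R 4.3.3) on log2(normalized count + 1) of genes with a mean of at least 10, fitted to all libraries of a set with a mean per group, two-sided, with Benjamini-Hochberg adjustment over all genes and a threshold of 0.05. It was tested on simulated data. edgeR 4.0.16 and DESeq2 1.42.0 on recovered reads were alternatives, and edgeR called 5025 genes higher and 5175 lower with circRMST shRNA, 4552 and 4724 with SOX2 siRNA and 3185 and 3525 with NKX2-1 siRNA. Features of non-human sequence (55 and 38) and Y copies of pseudoautosomal genes (7 and 11) were left out. Symbols were matched for 98.5% of gene IDs in each set; CD40LG, TNFRSF6B and SOD2 were not matched in either set, nor TNFSF11 in the siRNA set, and they are not analysed here. Members, gene lists and motifs were chosen with earlier results of these data known. The text names the 8 genes, the targeted genes, other family genes that passed on average and with each reagent in at least 1 comparison, and up to 4 adaptor and 4 NF-kB genes per knockdown with the largest such changes. TNFSF12 is named in addition as the ligand gene of TNFRSF12A, after its values were seen.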

Additional observations from a re-analysis of the deposited data

How the results depend on the processing

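Over the 7 fitted genes, 903 of the alternative values kept their direction and their side of the threshold, 28 lost a call, 3 gained one and 18 changed direction. Each change of direction was of a value that had not passed the threshold. For TNFSF9 with circRMST shRNA it was 0.14 with quantile normalization, and -0.48 to 0.24 when single libraries were left out. For TNFSF9 in SOX2 siRNA against NKX2-1 siRNA it was -0.0092 in edgeR and -0.037 with equal totals, and -0.086 to 0.12 with libraries left out. With libraries left out, TNFRSF1A with SOX2 siRNA ranged from -0.17 to 0.0019. Between reagents, with libraries left out, TNFSF9 ranged from -0.25 to 0.87 (shRNAs) and -0.28 to 0.13 (NKX2-1 siRNAs), TNFRSF12A from -0.48 to 0.20 (shRNAs), TNFRSF9 from -0.23 to 0.041 and TNFRSF11B from -0.33 to 0.029 (SOX2 siRNAs), and TNFRSF1A from -0.028 to 0.10 (NKX2-1 siRNAs). TNFSF9 lost its call with SOX2 siRNA under quantile normalization and with NKX2-1 siRNA under no filter.

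Counts of the other ligands and receptors moved with several settings. The number of these genes fitted changes with the filter and is not given here. Counts under another filter can therefore not be set against those of the main fit. With a mean of at least 50, 4 fell with circRMST shRNA, 4 with SOX2 siRNA and 5 with NKX2-1 siRNA, and 3 were higher and 2 lower in SOX2 siRNA against NKX2-1 siRNA. With no filter 16 fell with circRMST shRNA and 6 with NKX2-1 siRNA, 1 was higher and 5 lower in SOX2 siRNA against NKX2-1 siRNA, and 10409 of all genes fell with circRMST shRNA. In SOX2 siRNA against NKX2-1 siRNA 2 were higher in DESeq2 and 3 with equal totals. With SOX2 siRNA 1 rose in edgeR and 2 with quantile normalization. Between the SOX2 siRNAs 1 of 21 was called (18.5% of all genes), against 0 in DESeq2, edgeR, a mean of at least 50, no filter, only the groups compared, a pseudocount of 5 and quantile normalization. Between the shRNAs 3 of 19 were called (19.1% of all genes), against 0 with no filter and 1 with only the groups compared. Between the NKX2-1 siRNAs 2 of 21 were called (26.5% of all genes), against 0 in DESeq2 and 1 with a mean of at least 50. With no filter 1325 of all genes were called between the shRNAs and 2005 between the SOX2 siRNAs. With single libraries left out, those counts of all genes were 2230 to 3129 (lowest without circRMST shRNA 2 replicate 1) and 1912 to 3221 (lowest without SOX2 siRNA 2 replicate 2), beside 3639 and 3094 with all libraries, and the family counts were 1 to 3, 0 to 2 and 1 to 2 between the reagents for circRMST, SOX2 and NKX2-1. They were 5 to 8 lower and 0 to 1 higher with circRMST shRNA (5 without shGFP replicate 2), 0 to 1 higher with SOX2 siRNA and 2 to 5 higher in SOX2 siRNA against NKX2-1 siRNA. The cause was not tested, apart from the smaller or larger number of genes under another filter.

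Replicate numbers are shared between groups but did not pair the libraries: deviations of same-numbered libraries correlated at -0.042 to 0.047 in the shRNA set and -0.11 to 0.024 in the siRNA set. With the replicate number as a block, which leaves si-control replicate 3 without a partner, 13 other ligands and receptors fell with SOX2 siRNA, 9 with NKX2-1 siRNA and 8 with circRMST shRNA. Of all genes 4358, 2980 and 4891 fell there. Equal totals gave 3636 genes higher and 6513 lower with circRMST shRNA, against 5294 and 4936 as deposited, and 4224 and 2643 with NKX2-1 siRNA, against 3092 and 3592. Genes of few reads, such as TNFSF10, allow no statement on a change at this depth, and leaving a group with 1 library assumes that it varies like the others.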
